A study of Bos taurus with 2 samples.

Results

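The genes described here encode the transforming growth factor beta (TGF-beta) and bone morphogenetic protein (BMP) ligands, their receptors, the proteins that store latent TGF-beta in the matrix, and the SMAD proteins inside the cell. They were picked by symbol, as the rows that begin with BMP, GDF, SMAD, TGFB, ACVR or LTBP in the patterns used. This choice was made with earlier results of these data known. These patterns found 48 of the 24616 genes listed. RNA had been sequenced from seminiferous tubules, where sperm cells form in the testis, with 1 library from a bovine calf aged 3 months and 1 from a calf aged 9 months. The labels name no treatment, genotype, breed or pooling for either calf, and age, animal and piece of tissue cannot be told apart. The tissue is labelled as tubule, but Leydig cells, which lie between the tubules, left RNA in both libraries: their 8 marker genes summed to 18022.5 CPM at 3 months and 2777 CPM at 9 months, where CPM are counts relative to the scaled size of each library. INSL3, their hormone gene, made up 1962 CPM of the latter, CYP17A1 421 CPM and STAR 272 CPM. The others stood lower at 9 months: NR5A1 at 33.7, CYP11A1 at 33.1, HSD17B3 at 19.6, HSD3B at 18.6 and LHCGR at 17.0 CPM. HSD17B3 alone was higher than at 3 months, where it had 2.44 CPM. Sertoli cell markers, which belong inside the tubule, were all detected as well.

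Ligands of this family are dimers that bring together type I and type II receptor kinases at the cell surface. TGF-betas and activins act mainly through SMAD2 and SMAD3, and most BMPs and growth differentiation factors (GDFs) through SMAD1, SMAD5 and SMAD9, all of which enter the nucleus with SMAD4, while SMAD6 and SMAD7 hold the signal back. In the testis the family is known for inhibin, activin and anti-Müllerian hormone from Sertoli cells and for BMP signals that act on spermatogonia.

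Of the 48 genes, 41 were measured, meaning at least 10 counts over both libraries. In the 9-month library 14 of these were at least 2-fold lower and 4 at least 2-fold higher, each with a 95% counting interval of the ratio that excluded 1, and the other 23 lay within 2-fold. Genes past both limits are spoken of as called higher or lower. The genes higher at 9 months were the ligand genes BMP7, GDF9 and BMP3 and the receptor gene BMPR1B. The lowest ratios were those of the ligand gene GDF10 and the inhibitor gene SMAD6, followed by the matrix gene LTBP3, the protease gene BMP1 and the receptor gene ACVRL1. Among all 18025 measured genes 23.2% were lower by the same rule, 27.7% were higher and 49.1% neither, against 34.1% lower and 9.76% higher among the 41. The median log2 ratio of the 41 was -0.57, and that of all measured genes 0.0048. With 1 library per age there is no replicate check, no test and no p-value, and each value compares these libraries and not the ages in general. The totals were 37600534 counts in the 3-month and 29782234 in the 9-month library, of which the 48 genes took 0.160% (95% exact binomial interval 0.159 to 0.161) and 0.111% (0.110 to 0.112). Values "at 3 months" and "at 9 months" are those of the library of that age. Ranges in square brackets after a fold are 95% exact intervals that cover counting error only.

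The scaling between the libraries moved these counts. The values given use the trimmed mean of M values (TMM). With plain library totals in its place, a change of the scaling factors by 0.47 on the log2 scale, 7 members were higher and 9 lower. The share of higher genes among those called was then 43.8% for the members and 71.2% for all genes, against 22.2% and 54.5% with TMM. With totals taken after removal of the 100 genes with most counts in either library, a change of 0.22, it was 33.3% and 62.6%. Under each of the 5 scalings the members had a lower share of higher genes and a larger share of lower genes than all measured genes had.

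**Figure D1:**
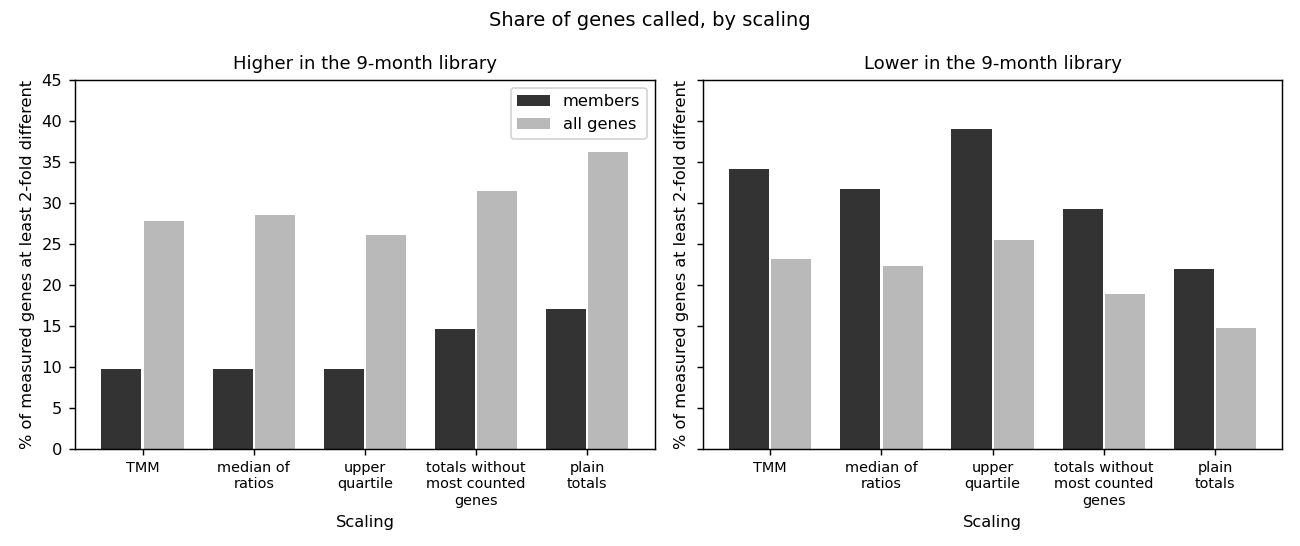
Percentage of measured genes called at least 2-fold higher (left) or lower (right) in the 9-month library under 5 scalings (horizontal axis), for the 41 measured members (dark bars) and all 18025 measured genes (grey bars). With the TMM scaling 9.76% of the members were higher and 34.1% lower, and with plain totals 17.1% and 21.95%.

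The TGF-beta ligands differed from each other. TGFB2 (ENSBTAG00000005359) had 650 counts, or 20.3 CPM, at 3 months and 234 counts, or 6.68 CPM, at 9 months. It was thus 3.05-fold lower [2.62 to 3.55], and the only TGF-beta ligand gene called. TGFB3 stood at 35.96 and 27.2 CPM, a ratio within 2-fold whose log2 value of -0.40 turned to 0.06 with plain library totals. TGFB1, the gene of the founding member of the family, stood at 8.92 and 12.3 CPM and was 1.38-fold higher [1.18 to 1.61]. The TGFB1 value is uncertain, since the gene overlaps HNRNPUL1 and CCDC97 in assembly ARS-UCD2.0 and the strand setting of the counting is not given in the sources used here. HNRNPUL1 had 11531 and 19627 counts, against 285 and 431 for TGFB1. TGFB3 overlaps IFT43, which had 232 and 378 counts. Per length, TGFB1 was 0.927 times TGFB2 in the RPKM (reads per kilobase of gene, relative to the library total) of the 3-month library and 3.89 times TGFB2 in that of the 9-month library. This ratio, which no scaling between libraries touches, was 4.201-fold higher at 9 months [3.38 to 5.22].

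Among the BMP ligand genes the widest difference was in BMP7. BMP7 (ENSBTAG00000015362), a ligand known from kidney and germ line development, had 40 counts (1.25 CPM) at 3 months and 781 (22.3 CPM) at 9 months. It was 17.8-fold higher [12.9 to 25.1]. In the RPKM order of all measured genes it moved from the 20.0th to the 58.7th percentile. BMP3 had 0 counts in the 3-month and 12 in the 9-month library (0.342 CPM). Against a floor of 3 counts in the 3-month library it was at least 3.65-fold higher, which takes the 12 counts as exact, and the lower end of its counting interval was 2.53.

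BMP4, a BMP ligand known to act on spermatogonia, stood at 11.5 and 12.8 CPM, a ratio of 1.11 [0.969 to 1.28]. Among the other BMP ligands BMP6 stood at 3.97 and 2.37 CPM, a ratio of 0.596 [0.446 to 0.792]. BMP2 stood at 2.66 and 1.37 CPM, a ratio of 0.515 [0.354 to 0.742] that passed the 2-fold line with upper-quartile scaling, where it was 0.476. BMP5, with 26 and 14 counts (0.814 and 0.399 CPM), was 2.04-fold lower [1.02 to 4.22]. This BMP5 call was lost under 3 of the 4 other scalings, with ratios of 0.506 to 0.680. BMP15, which with GDF9 is known from the oocyte, had 1 count in each library, and BMP10 had 0 in both. A count of 0 allows up to 0.0939 CPM in the 3-month and 0.0856 CPM in the 9-month library.

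By RPKM the leading BMP ligand gene was BMP4 at 3 months and BMP7 at 9 months. BMP4 made up 58.1% of the summed RPKM of the 8 BMP ligand genes found at 3 months and 33.4% at 9 months, and BMP7 6.01% and 55.1%. Within a library BMP7 was 0.103 times BMP4 in RPKM at 3 months and 1.65 times at 9 months, a 15.97-fold difference between the ratios [11.2 to 23.1].

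The GDF ligands held the lowest ratio of all members, that of GDF10, and one of the highest, that of GDF9. GDF10 (ENSBTAG00000001019), a relative of BMP3, had 811 counts (25.4 CPM) at 3 months and 16 (0.456 CPM) at 9 months. It was 55.6-fold lower [34.0 to 97.75], and moved from the 57.3rd to the 3.56th percentile of the RPKM order. GDF9 (ENSBTAG00000009478) is best known as a growth factor of the oocyte. It had 30 counts (0.939 CPM) and 350 counts (9.99 CPM), and was 10.6-fold higher at 9 months [7.32 to 16.002]. The pair thus changed places: GDF10 made up 86.3% of the summed RPKM of the 8 GDF genes at 3 months and 2.69% at 9 months, while GDF9 made up 4.43% and 81.7%. GDF11 was low in both libraries, with 28 and 33 counts. The other 5 GDF genes had too few counts to be measured: GDF2 had 8 and 1, GDF7 had 2 and 7, GDF6 had 2 in each, GDF5 had 2 and 0, and GDF15 had 0 and 1.

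**Figure D2:**
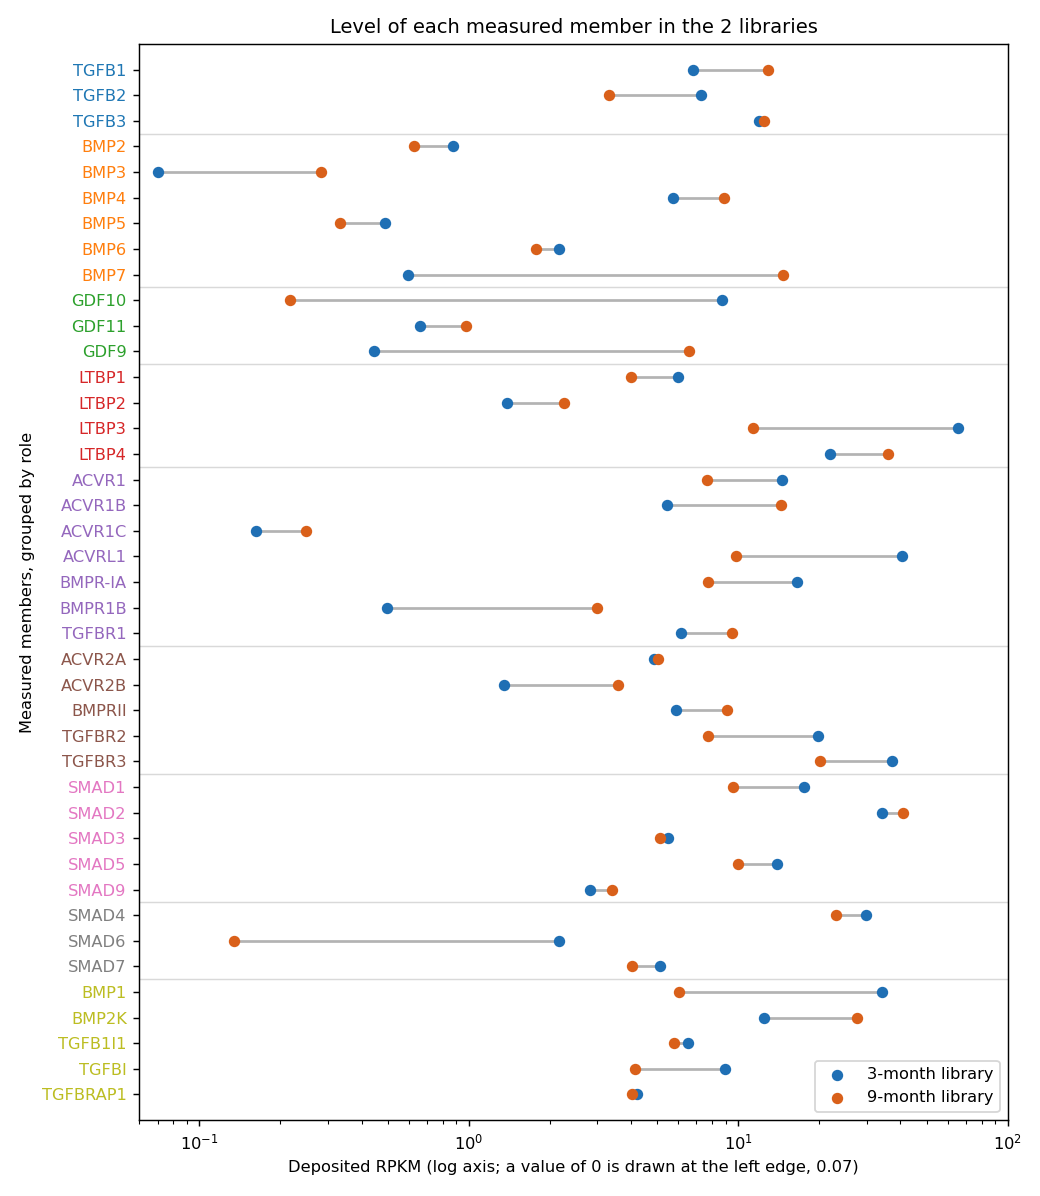
Deposited RPKM (horizontal log axis) of the 41 measured members (vertical axis, coloured and grouped by role) in the 3-month library (blue) and the 9-month library (orange), with a grey line joining the 2 values of a gene. The longest lines are those of GDF10 (8.69 and 0.217 RPKM), BMP7 (0.593 and 14.6), SMAD6 (2.15 and 0.135) and GDF9 (0.446 and 6.57). BMP3, at 0 in the 3-month library, is drawn at the left edge there.

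Latent TGF-beta binding proteins tie inactive TGF-beta to fibres of the matrix, and LTBP3 was the member with the highest RPKM of all at 3 months. LTBP3 (ENSBTAG00000006747) had 12819 counts (401 CPM) at 3 months and 1761 (50.2 CPM) at 9 months. It was 7.985-fold lower [7.60 to 8.40]. LTBP4 (ENSBTAG00000004757), which also assists elastic fibre assembly, had 4763 and 6179 counts (149 and 176 CPM), a ratio of 1.18 [1.14 to 1.23]. LTBP1 had 1208 and 641 counts (37.8 and 18.3 CPM) and was 2.07-fold lower [1.88 to 2.28], a call lost with plain library totals (ratio 0.670) and without the most counted genes (0.562). LTBP2 stood at 11.1 and 13.0 CPM.

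The order of LTBP3 and LTBP4 turned around between the libraries. LTBP3 made up 69.1% of the summed LTBP RPKM at 3 months and 21.2% at 9 months, and LTBP4 23.1% and 67.1%. LTBP4 was 0.335 times LTBP3 in RPKM at 3 months and 3.16 times at 9 months, and the ratios differed 9.44-fold [8.87 to 10.1]. In the RPKM order of the 48 members LTBP3 went from rank 1 to rank 10 and LTBP4 from rank 7 to rank 2.

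**Figure D3:**
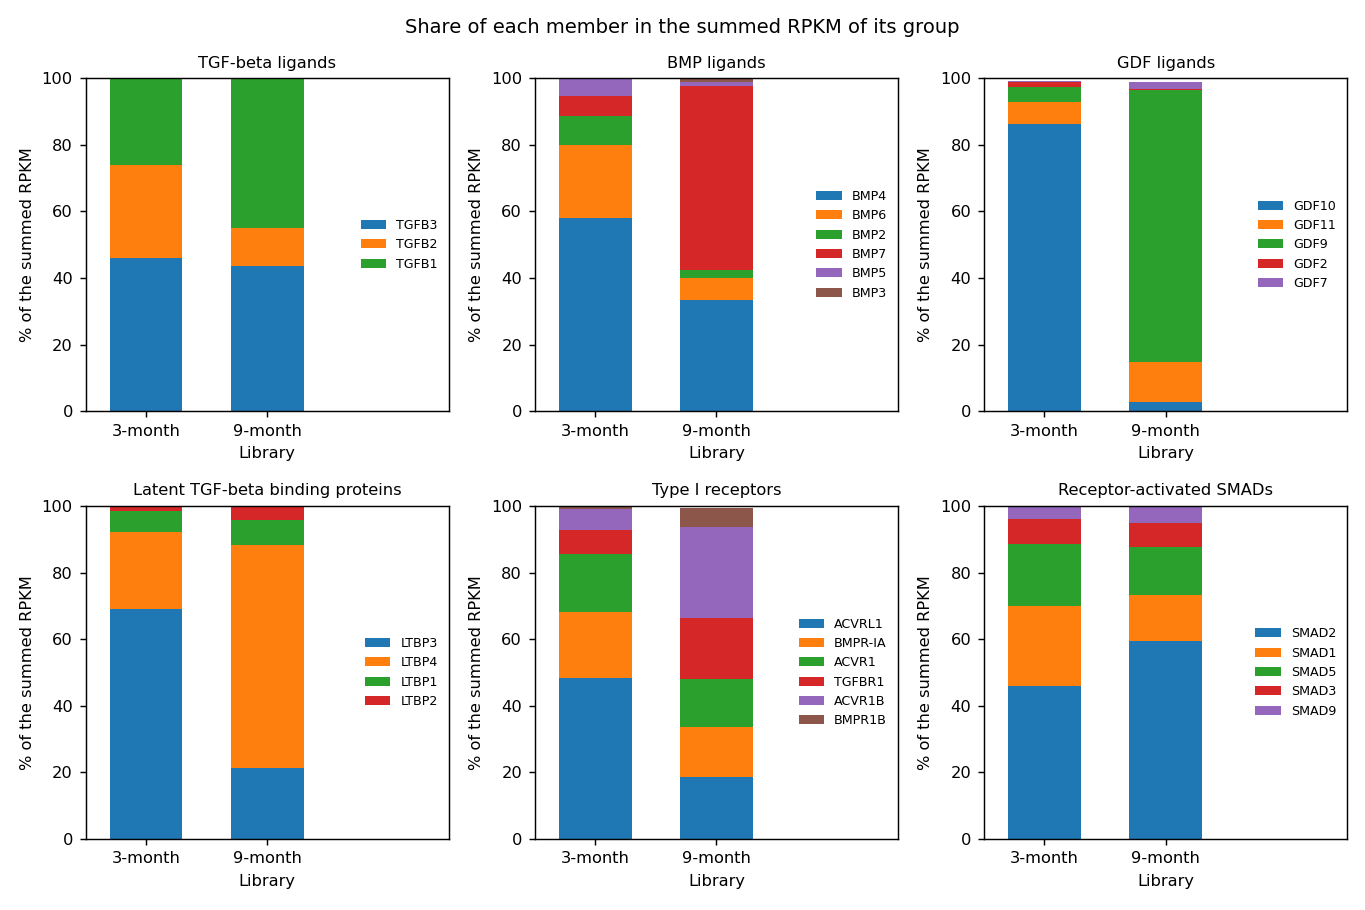
Percentage of the summed RPKM (vertical axis) that each member holds within its group, for 6 groups, in the 3-month and the 9-month library (stacked bars; members under 1% in both libraries are not drawn). The largest share passes from GDF10 to GDF9 (86.3% to 2.69% against 4.43% to 81.7%), from LTBP3 to LTBP4 and from BMP4 to BMP7. A share can fall without a lower level: the ratio of BMP4 was 1.11.

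Among the 7 type I receptors, the kinases that phosphorylate SMADs, 3 were lower, 1 was higher and 3 lay within 2-fold. ACVRL1 (ENSBTAG00000013843), known as the endothelial receptor of GDF2 and BMP10, had 3774 counts (118 CPM) at 3 months and 719 (20.5 CPM) at 9 months. It was 5.76-fold lower [5.315 to 6.24]. Its ligand genes GDF2 and BMP10 were at or near 0 in both libraries, as given above. BMPR-IA, the symbol the tables use for the BMP receptor BMPR1A, had 2520 and 934 counts (78.9 and 26.6 CPM) and was 2.96-fold lower [2.75 to 3.19]. ACVR1, another receptor for BMPs, had 1516 and 634 counts (47.4 and 18.1 CPM) and was 2.62-fold lower [2.39 to 2.88], a call lost with plain library totals (ratio 0.528).

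BMPR1B differed in the opposite direction from its relative BMPR1A. BMPR1B (ENSBTAG00000002081) had 65 counts (2.03 CPM) at 3 months and 310 (8.84 CPM) at 9 months, and was 4.35-fold higher [3.32 to 5.77]. Within a library it was 0.0301 times BMPR1A in RPKM at 3 months and 0.387 times at 9 months, ratios that differed 12.9-fold [9.70 to 17.3]. The activin receptor gene ACVR1B stood at 10.9 and 20.8 CPM, a ratio of 1.91 [1.68 to 2.18]. It passed the 2-fold line with plain library totals (2.65) and without the most counted genes (2.22). The TGF-beta receptor gene TGFBR1 stood at 14.8 and 16.5 CPM, a ratio of 1.12 [0.988 to 1.26], and ACVR1C had only 9 and 11 counts. By RPKM the leading type I receptor gene was ACVRL1 at 3 months, with 48.5% of the summed value, and ACVR1B at 9 months, with 27.5%.

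Type II receptors join the type I receptors in binding the ligand, and co-receptors present it. TGFBR2 (ENSBTAG00000019832), the type II receptor for TGF-betas, had 3255 counts (102 CPM) at 3 months and 1013 (28.9 CPM) at 9 months. It was 3.52-fold lower [3.28 to 3.79]. TGFBR3 (ENSBTAG00000024269) encodes betaglycan, a co-receptor for TGF-beta2 and inhibin. It had 3867 and 1654 counts (121 and 47.2 CPM) and was 2.56-fold lower [2.42 to 2.72], a call lost with plain library totals (ratio 0.540).

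The type II receptors for activins and BMPs lay within 2-fold. ACVR2A stood at 25.1 and 18.9 CPM, a log2 ratio of -0.41 that turned to 0.06 with plain library totals. ACVR2B stood at 2.91 and 5.59 CPM, a ratio of 1.92 [1.49 to 2.49] that passed 2-fold with plain library totals (2.66) and without the most counted genes (2.23). BMPRII, the symbol used for BMPR2, stood at 19.5 and 21.7 CPM, a ratio of 1.12 [1.00 to 1.24]. TGFBR1 and TGFBR2, which work as a pair, had unequal ratios: in RPKM TGFBR1 was 0.310 times TGFBR2 at 3 months and 1.22 times at 9 months, a 3.94-fold difference [3.42 to 4.55].

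**Figure D4:**
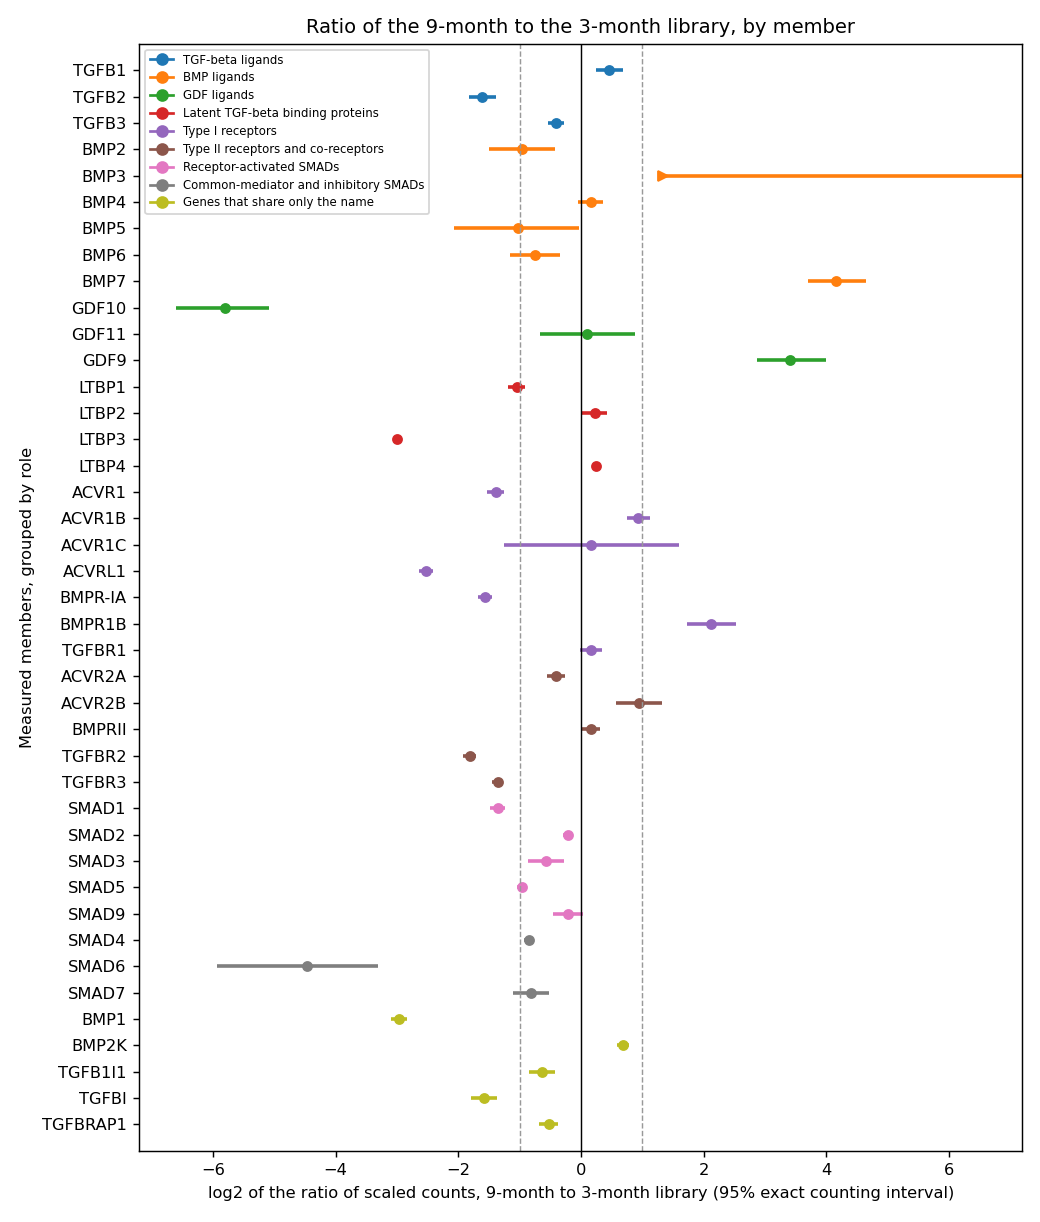
Log2 of the ratio of scaled counts, 9-month to 3-month library (horizontal axis), for the 41 measured members (vertical axis), with 95% exact counting intervals as bars and colours by role. Dashed lines mark a 2-fold difference; GDF10, SMAD6, LTBP3, BMP1 and ACVRL1 lie farthest to the left. BMP3, with 0 counts at 3 months, has no point estimate and is drawn as an arrow from the lower end of its interval.

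Apart from SMAD6, the SMAD genes had log2 ratios between -1.35 and -0.21. SMAD1 (ENSBTAG00000002835), which carries BMP signals, had 1844 counts (57.7 CPM) at 3 months and 790 (22.5 CPM) at 9 months. It was 2.56-fold lower [2.35 to 2.79], and this call was lost with plain library totals (ratio 0.541). Its close relative SMAD5 stood at 113 and 58.0 CPM, a ratio of 0.516 [0.488 to 0.544] that passed the 2-fold line with upper-quartile scaling (0.476). SMAD9, the third SMAD of this branch, stood at 8.64 and 7.48 CPM, a ratio of 0.865 [0.728 to 1.03].

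On the TGF-beta and activin branch SMAD2 (ENSBTAG00000039916) had 2604 and 2473 counts (81.5 and 70.6 CPM), a ratio of 0.866 [0.819 to 0.915]. With plain library totals the SMAD2 and SMAD9 ratios turned to 1.20 each. SMAD3 stood at 7.42 and 4.99 CPM. In RPKM SMAD2 was the highest of the 48 members at 9 months, with 40.8, and the fifth at 3 months, with 34.0. Relative to SMAD1 it was 1.93 times as high at 3 months and 4.28 times at 9 months, a 2.22-fold difference [2.004 to 2.45]. SMAD4 (ENSBTAG00000006919), the shared partner, had 3689 and 2252 counts (115 and 64.3 CPM), a ratio of 0.556 [0.528 to 0.587].

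The inhibitory SMADs had unequal ratios. SMAD6 (ENSBTAG00000000625), which mainly restrains BMP signals and is itself induced by them, had 121 counts (3.79 CPM) at 3 months and 6 (0.171 CPM) at 9 months. It was 22.1-fold lower [9.87 to 61.5], the lowest ratio after GDF10, with an interval that is wide because 6 counts lie behind one side. SMAD7, which restrains both branches, stood at 7.82 and 4.45 CPM, a ratio of 0.569 [0.463 to 0.698].

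Of the 48 rows 5 share the name of a family member without being a ligand, receptor, SMAD or latent TGF-beta binding protein. Some of the 5 still have a tie to the pathway, as given for each. BMP1 (ENSBTAG00000000917) encodes a metalloprotease that trims procollagens and cuts the BMP antagonist chordin. It had 3968 counts (124 CPM) at 3 months and 556 (15.9 CPM) at 9 months, and was 7.83-fold lower [7.16 to 8.57]. TGFBI, a matrix protein known to be induced by TGF-beta, had 720 and 264 counts (22.5 and 7.53 CPM) and was 2.99-fold lower [2.60 to 3.46]. BMP2K (ENSBTAG00000001126), a kinase of endocytosis, had 1465 and 2585 counts (45.9 and 73.8 CPM), a ratio of 1.61 [1.51 to 1.72] that reached 2.23 with plain library totals. It overlaps PAQR3 in assembly ARS-UCD2.0, which had 904 and 1956 counts. TGFB1I1, a focal adhesion protein, stood at 13.7 and 8.87 CPM and TGFBRAP1, which binds TGF-beta receptors, at 24.6 and 17.1 CPM, both within 2-fold. Without these 5 rows 12 of 36 measured members were lower and 4 higher, with a median log2 ratio of -0.49.

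The other genes of the pathway were taken from 6 lists, drawn up by place in the pathway with earlier results of these data known. Together these held 68 genes that are no members, of which 59 were measured: 23 lower, 25 within 2-fold and 11 higher. Beside these and the list counts below, 23.2% of all measured genes were lower and 27.7% higher. With plain library totals these shares were 14.7% and 36.2%. Among the related ligand genes 3 of 5 measured were lower and none was called higher. AMH, the anti-Müllerian hormone of immature Sertoli cells, was 35.2-fold lower, from 1193 to 33.8 CPM. INHA, the inhibin alpha chain, was 10.7-fold lower, and INHBA, a chain shared by activin A and inhibin A, 6.41-fold. INHBB, the chain of activin B, stood at 5.76 and 8.84 CPM, within 2-fold, and its ratio passed 2-fold with plain library totals, where 1 of the 5 was higher.

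Extracellular antagonists, which trap ligands, had 5 of 9 measured members lower and 3 higher under each of the 5 scalings. CHRD, the chordin that BMP1 cuts, had 2221 counts (69.5 CPM) at 3 months and 64 (1.83 CPM) at 9 months, and was 38.1-fold lower [29.7 to 49.6]. DCN, a matrix proteoglycan that binds TGF-beta, was 14.9-fold lower [14.4 to 15.4]. The follistatin-related genes FSTL1 and FSTL3 were 4.81-fold [4.66 to 4.97] and 4.58-fold [4.26 to 4.92] lower. The 3 higher genes, all under 5 CPM in both libraries, were GREM1, BMPER and CHRDL1. GREM1 had 0 and 51 counts, BMPER was 3.22-fold higher [1.85 to 5.88] and CHRDL1 2.30-fold [1.67 to 3.23]. NOG, the gene of the antagonist noggin, was at 0 counts in both libraries.

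Among 14 genes that process, anchor, activate or restrain latent ligand complexes 5 were lower and 3 higher. EMILIN1, which restrains TGF-beta maturation, was 8.57-fold lower [7.925 to 9.27] and FURIN, a protease that cuts the precursors, 2.63-fold lower [2.46 to 2.82]. The related proteases PCSK6 and PCSK5 were higher, by 9.05-fold [6.63 to 12.6] and 6.595-fold [5.49 to 7.97]. With plain library totals 2 of the 14 were lower and 5 higher. Among 6 measured co-receptors 2 were lower: BAMBI, a decoy receptor, 4.76-fold [4.16 to 5.47] and RGMA, a BMP co-receptor, 3.56-fold [3.05 to 4.18]. The endothelial co-receptor gene ENG stood at 26.8 and 13.4 CPM and the AMH receptor gene AMHR2 at 36.3 and 19.8 CPM, both within 2-fold.

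Of 18 intracellular regulators 4 were higher, 3 lower and 11 within 2-fold, with the median log2 ratio at 0.44. Among all measured genes 27.7% were higher and 23.2% lower. SMURF1, a ubiquitin ligase that marks SMAD1 and SMAD5 for degradation, was 6.16-fold higher [5.46 to 6.98], from 9.42 to 58.1 CPM. The ubiquitin ligase genes NEDD4L and TRIM33 were higher, by 3.47-fold [3.20 to 3.77] and 2.72-fold [2.498 to 2.96], and the SMAD co-repressor gene SKI 2.48-fold lower [2.24 to 2.74]. With plain library totals 8 of the 18 were higher and none lower, against 36.2% higher and 14.7% lower among all measured genes.

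Known direct targets of SMADs were mostly lower. Of 10 target genes that are no members 7 were lower, 2 within 2-fold and 1 higher, and the median log2 ratio was -1.41. The lists overlap: BAMBI is also counted among the co-receptors above, and PMEPA1 and SKIL among the intracellular regulators. ID3, ID1 and ID2, inhibitors of differentiation that BMPs are known to induce, were 13.2-fold [10.4 to 17.0], 4.50-fold [3.75 to 5.43] and 2.88-fold [2.44 to 3.40] lower. JUNB, which is also an immediate early gene, was 3.16-fold lower [2.81 to 3.57]. CTGF, a connective tissue growth factor gene, was 2.02-fold higher [1.81 to 2.26] and no longer called with upper-quartile scaling. With the members SMAD6, SMAD7 and TGFBI counted in, 9 of 13 targets were lower, and 7 of 13 with plain library totals.

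**Figure D5:**
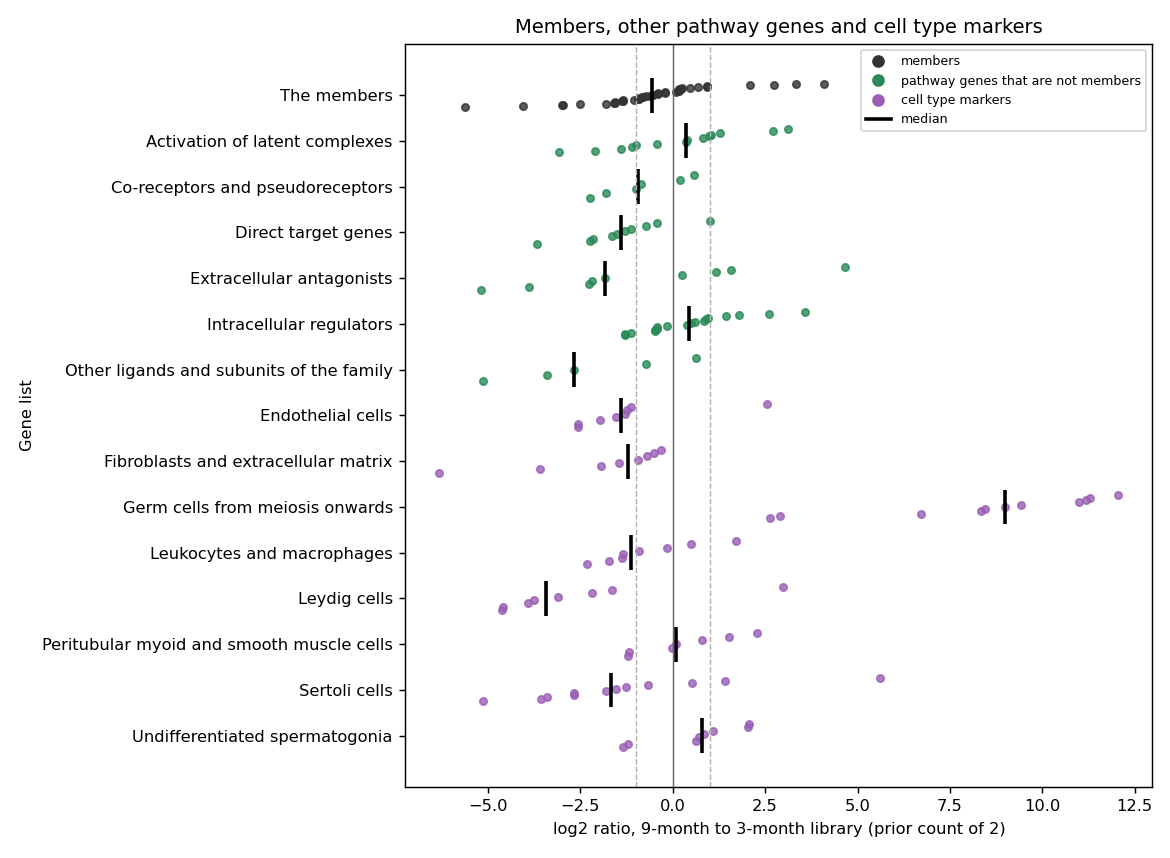
Log2 ratio, 9-month to 3-month library with a prior count of 2 (horizontal axis), of each measured gene of the members (dark), of the 6 pathway lists without members (green) and of 8 cell type marker lists (purple), with the median of each list as a black bar. The median of the members is -0.57, the intracellular regulators and the latent complex genes have medians above 0, and the germ cell markers from meiosis onwards lie at 8.99.

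Markers of several cell types differed between the libraries as well. By the same rule 27.7% of all measured genes were higher and 23.2% lower, or 36.2% and 14.7% with plain library totals. These are bulk samples, in which fewer cells of a type and less RNA per cell cannot be told apart. All 11 markers of germ cells from meiosis onwards were higher at 9 months, with a summed level of 30.6 CPM in the 3-month and 2964 CPM in the 9-month library, and ODF1 and TEKT4 at 0 in the former. Of 8 endothelial markers 7 were lower and VWF was 5.84-fold higher, with sums of 215 and 128 CPM. The 7 ranged from 2.20-fold lower for TIE1 to 6.05-fold for EMCN.

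Of 8 fibroblast and matrix markers 4 were lower and 4 within 2-fold, with sums of 18345 and 2407 CPM, or 2440.5 and 1082 CPM without SPARC. Sertoli markers had 8 of 12 lower and 2 higher, with sums of 10203.5 and 2274 CPM. The lower ones include AMH and INHA, which are also counted among the related ligand genes above. Of the Leydig markers summed above 7 of 8 were lower and 1, HSD17B3, was 8.03-fold higher. Leukocyte markers had 4 of 8 lower and 1 higher (469 and 239 CPM), and myoid and smooth muscle markers 2 of 7 higher and 2 lower (515 and 755 CPM). Markers of undifferentiated spermatogonia had 3 of 8 higher and 1 lower (81.9 and 113 CPM), but 6 higher and 0 lower with plain library totals and 2 of each with upper-quartile scaling. Plain totals left 4 endothelial, 3 fibroblast, 7 Sertoli, 7 Leydig and 2 leukocyte markers lower, and of the myoid markers 3 were higher and 0 lower. Apart from ODF1 and TEKT4, no marker found in the tables was at 0 in either library. The part of these cell types in the ratios of the members was not tested.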

How the data were processed

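Per the labels' protocols, tubule sections were flash frozen and libraries made from column-extracted total RNA. Per the submitters' processing notes, Trimmomatic 0.33, STAR 2.4.0 and the bovine build UMD3.1 were used. Not given in the sources used here are the counting program, the annotation, the strand setting and any molecular identifiers. The deposited tables have no header, so units were read from the values. The deposited counts are raw whole numbers per Ensembl gene, and a further deposited column gives the length of each gene. The deposited RPKM equals counts per kilobase relative to the table's own total to within 0.000492% (3-month) and 0.000496% (9-month), and served to compare genes within a library.

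Counts were scaled with the TMM method (trimmed mean of M values) over all genes in edgeR 4.0.16 under R 4.3.3, with factors of 0.850 (3-month) and 1.18 (9-month), and expressed as CPM. Log2 ratios carry a prior count of 2. Fold intervals are conditional binomial (Clopper-Pearson), from scipy 1.17.1, and intervals for ratios between gene pairs are exact conditional odds ratio intervals; the 8 pairs were chosen after their values were seen. PCR reads need not be independent molecules, so even as counting intervals these can be too narrow. The scripts were tested on simulated counts in which few genes differed, as many up as down. Far more genes differed between these libraries, so that test does not bear on the choice of scaling.

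Each age has 1 library, so no test was made. The members and lists were chosen with earlier results of these data known. Full values are given for every member called and for the 5 highest RPKM values of each library, and from each pathway list up to 4 genes of at least 5 CPM with the largest log2 ratios are named; other genes named were chosen after their values were seen. All 48 members matched a row of the RefSeq table (ARS-UCD2.0), which was used for names and overlaps only, and 10 overlap another gene there, of which not all are reported here. Of the listed pathway genes and markers, those not found under a symbol or synonym were left out. Alternatives were other scalings, count minimums, prior counts and size thresholds.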

Additional observations from a re-analysis of the deposited data

How the results depend on the processing

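With 1 library per age nothing bears on differences between animals, and depth limits GDF10, SMAD6, BMP3 and BMP5, which have 16, 6, 12 and 14 counts in the 9-month library. No paired analysis was possible because each age has 1 library. The median log2 ratio of the members, -0.57, stayed below 0 under every alternative run. The scalings could not have changed this, as they shifted log2 ratios by at most 0.47. The median of all measured genes shifted too, to 0.46 with plain library totals. The members' median minus that of all genes was -0.56 to -0.57 under each scaling. The members' median was -0.10 with plain library totals, -0.68 with upper-quartile scaling, -0.52 with median-of-ratios scaling and -0.35 without the 100 most counted genes. It was -0.53 with a minimum of 1 count, -0.60 with a minimum of 50 and -0.54 with a prior count of 10. It was -0.49 without the genes that share a family name but are no ligand, receptor, SMAD or LTBP (chosen after seeing the data). It kept its value with BMP3 at its bound, as it had to, since BMP3 lay above the median either way. Plain library totals gave 7 members higher and 9 lower. A 1.5-fold threshold gave 7 higher, 20 lower and 14 within it, and a 4-fold threshold 3 higher, 5 lower and 33 within it. The shares over all genes at these thresholds are not given here, so these counts have no background beside them. No called member changed direction under another scaling or prior count, but none could have. A called ratio was at least 2-fold, the scalings shifted log2 ratios by at most 0.47, and a prior count only shrinks a ratio. Of the 41 log2 ratios, 32 left their counting interval with plain totals, 25 without the most counted genes and 9 with upper-quartile scaling.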
